A study of Homo sapiens with 9 samples.

Results

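The 51 genes described here encode proteins that find and repair DNA crosslinks, strand breaks and bulky lesions. They were taken by gene symbol from a list made up of 18 recombination genes, 10 Fanconi anaemia genes, 4 checkpoint kinase genes, 9 nucleotide excision repair genes, 5 end-joining genes, 3 DNA polymerase genes, the mismatch repair gene MSH6 and the break sensor gene PARP1. All 51 were found among the 18430 genes of the deposited table, and all 51 passed the filter on low counts, which left 13989 genes for testing.

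RNA was sequenced from A375 cells, an established human melanoma line with the genotype label BRAFV600E that all groups share, grown in medium with fetal bovine serum. There were 3 groups of 3 libraries. The vemurafenib group had 10 µM vemurafenib, an inhibitor of mutant BRAF kinase, for 3 days, and the cisplatin group had 2 µM cisplatin, a platinum drug that forms DNA crosslinks, for 1 day. Both were then kept without drug and collected on day 7, and the control group was in normal culture. No collection day is given for the control group. Dose and exposure time differ between the drugs. If day 7 counts from the start of treatment, the time without drug before collection differs too. The direct comparison of vemurafenib with cisplatin therefore sets 2 regimens side by side and not 2 drugs at a matched dose.

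Crosslinks and breaks are repaired by different routes. The Fanconi anaemia proteins direct the unhooking of interstrand crosslinks at stalled replication forks, and homologous recombination copies the intact sister chromatid, so both act mainly in S and G2 phase, when many of their genes are also transcribed most. Nucleotide excision repair cuts out bulky lesions, including platinum adducts within a strand, and end joining religates broken ends; both work throughout the cell cycle. ATM and ATR are the kinases that signal breaks and stalled forks, through CHEK2 and CHEK1.

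Library totals ranged from 14481020 to 16038475 estimated counts. The melanocyte-lineage factor SOX10 stood at 754.0 to 869.3 TPM (transcripts scaled to an equal total in each library) in vemurafenib libraries, 585.9 to 626.5 TPM in cisplatin libraries and 695.6 to 764.4 TPM in control libraries, whereas the pigment genes MLANA, TYR and TYRP1 were below 1 TPM in every library. The pigment gene DCT was at 79.6 to 181.0 TPM in vemurafenib libraries, 0.19 to 0.45 TPM in cisplatin libraries and 0.0 to 0.1 TPM in control libraries, and PMEL at 1.6 to 1.7, 3.44 to 5.24 and 1.55 to 1.81 TPM in the same groups. The summed melanoma list (8 genes) was at 1488.0 to 1655.1 TPM in vemurafenib, 898.0 to 985.6 TPM in cisplatin and 742.0 to 811.8 TPM in control libraries. Within this sum S100B stood at 557.0 to 621.4, 257.6 to 375.8 and 29.1 to 33.1 TPM in the same groups. Of the 5 tested genes of the list, MITF, DCT and S100B rose after vemurafenib and 0 fell. After cisplatin PMEL, DCT and S100B rose, and SOX10 fell by 0.34 on the log2 scale. Summed blood markers (4 genes found) were at 0.42 to 0.55, 0.43 to 0.76 and 0.32 to 0.62 TPM in the same order of groups. The 5 fibroblast markers summed to 16.9 to 27.9, 12.0 to 26.1 and 8.73 to 10.4 TPM with THY1 at or near 0. LUM and DCN rose after both drugs, LUM by 2.03 after vemurafenib and 2.05 after cisplatin on the log2 scale. PDGFRB fell after cisplatin and COL1A1 after vemurafenib. The 4 endothelial markers summed to 2.71 to 10.5, 18.9 to 21.4 and 5.98 to 7.96 TPM with CDH5 at or near 0. KDR rose by 1.70 after cisplatin, and PECAM1 and VWF fell after vemurafenib. The 5 keratinocyte markers found summed to 17.6 to 21.8, 18.8 to 21.7 and 17.9 to 21.4 TPM, and KRT14 fell after both drugs. The part of these markers in the results was not tested. Vemurafenib replicate 1 stood apart from the other vemurafenib libraries by transcript length: the log2 ratio of its level to the mean of replicates 2 and 3 had a Spearman correlation of -0.61 with effective length across 13638 genes and of -0.68 across the 51 repair genes. Calls against control that change when it is left out are given below with and without it.

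Among the repair genes, levels in control cells differed widely. By TPM, which is per length, the highest control means were those of XRCC6 at 284.6 ± 19.2 TPM, XRCC5 at 269.0 ± 18.9 TPM and ERCC1 at 268.6 ± 6.02 TPM (SD, n = 3 each), and these 3 neighbours in the order lie within each other's spread. The first 2 encode the Ku70 and Ku80 subunits that bind broken ends, and ERCC1 is the partner of the nuclease that cuts 5′ of a lesion. At the other end, BRCA2 averaged 4.23 ± 0.50 TPM and BARD1 3.74 ± 0.175 TPM in control cells (SD, n = 3 each). The median over the 18 recombination genes was 14.3 TPM in vemurafenib cells, 3.25 TPM in cisplatin cells and 16.1 TPM in control cells. Over the 9 excision genes it was 46.1 TPM, 48.0 TPM and 40.2 TPM in the same groups.

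**Figure D1:**
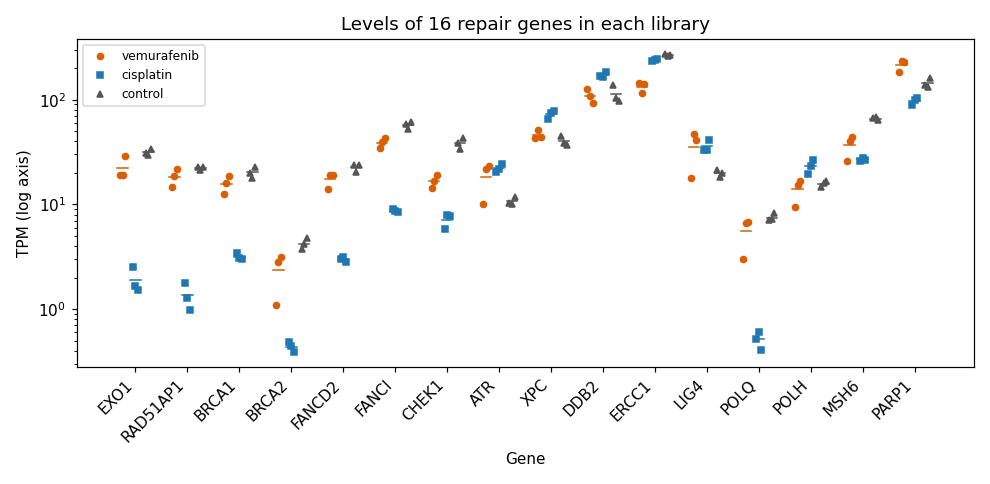
TPM of 16 repair genes in each library on a log axis, with vemurafenib libraries as circles, cisplatin libraries as squares, control libraries as triangles and a line at each group mean. The cisplatin points of EXO1, RAD51AP1, BRCA2 and POLQ lie far below the other groups, whereas those of XPC, DDB2 and ATR lie above control.

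After cisplatin, 31 of the 51 genes fell and 7 rose, and 21 of the falls were by at least 1 on the log2 scale. Falls took 23.5% of all tested genes in this comparison and rises 22.7%, and falls by at least 1 took 9.30%. The median log2 change of the 51 was -0.58, against 0.00 over all tested genes. After vemurafenib, 17 of the 51 fell and 4 rose, where 22.9% and 22.0% of all tested genes did so, so the share of rises was below that of all genes. The median log2 change of the 51 was -0.14, against 0.01 over all tested genes. The counts of rises rest on single libraries: after cisplatin 4 rose when any 1 cisplatin library or control replicate 3 was left out, and after vemurafenib 10 rose without vemurafenib replicate 1 and 2 without vemurafenib replicate 2, vemurafenib replicate 3 or control replicate 2. Rises over all tested genes moved too. After cisplatin they numbered 2556 to 2704 with those libraries left out, against 3181. After vemurafenib they numbered 3716 without vemurafenib replicate 1 and 2402 to 2890 in the other cases, against 3082. The counts of falls ranged between 26 and 34 after cisplatin and between 15 and 20 after vemurafenib with 1 library left out. Both comparisons use the same control libraries. Of the 31 genes that fell after cisplatin, 16 also fell after vemurafenib, 14 did not pass the test there, and PARP1 rose. The matching count over all tested genes was not taken, so this overlap cannot be read as particular to repair genes. In bulk RNA, fewer cells of a type and less RNA per cell cannot be told apart.

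**Figure D2:**
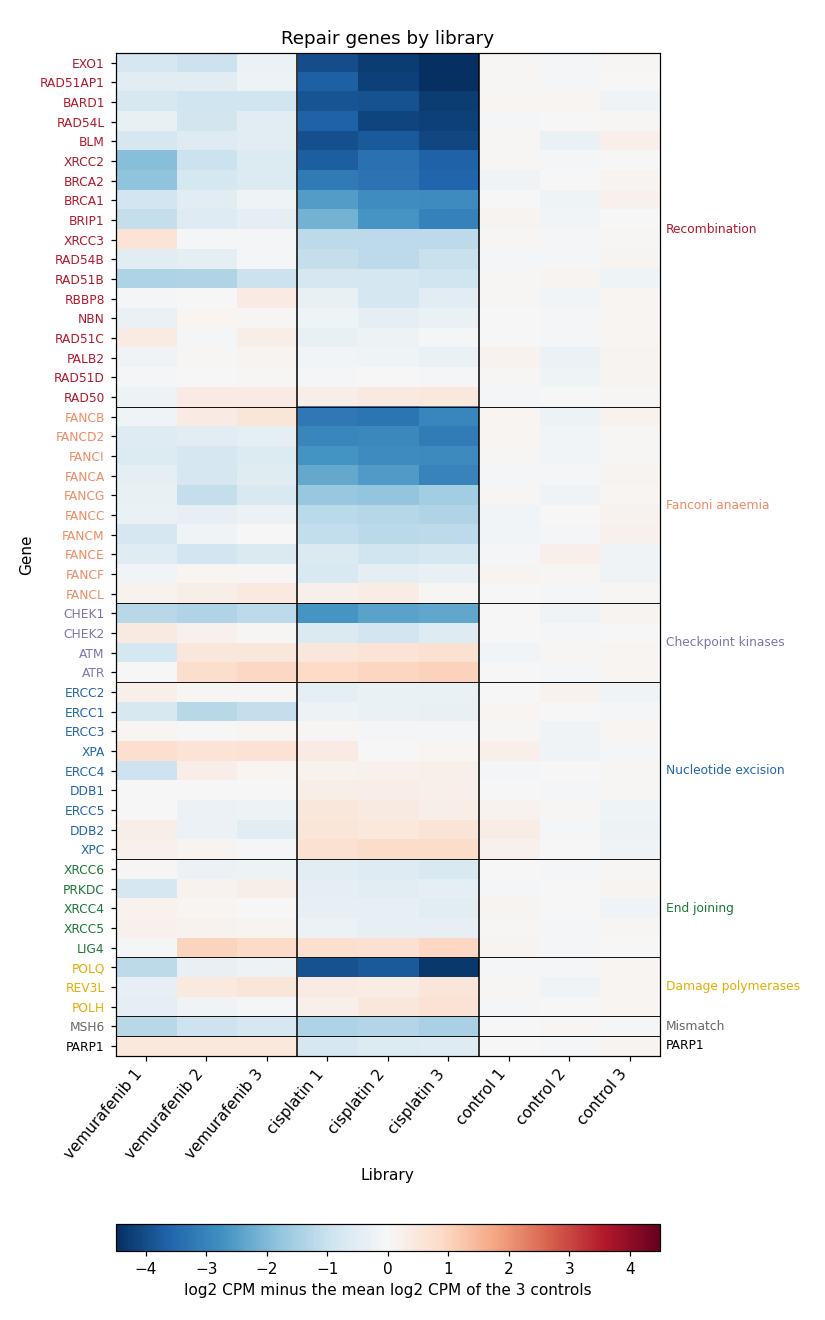
Heatmap of the 51 repair genes (rows, grouped by role) in the 9 libraries (columns), coloured by log2 CPM minus the mean log2 CPM of the 3 control libraries. The dark blue blocks mark the recombination and Fanconi genes that were lowest in cisplatin libraries, while the excision and end-joining rows stay pale.

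The recombination genes showed the deepest falls after cisplatin. Of 18 genes, 13 fell and 0 rose, 11 of them by at least 1 on the log2 scale, with a median log2 change of -1.87. Among all tested genes 23.5% fell, 22.7% rose and 9.30% fell by at least 1. EXO1, the nuclease that resects broken ends, had 32.2, 27.6 and 44.6 CPM (TMM-normalised read counts scaled to equal library size) in vemurafenib libraries, 3.39, 2.78 and 2.40 CPM in cisplatin libraries and 55.2, 50.6 and 55.5 CPM in control libraries. The 3 groups did not overlap, and cisplatin cells kept 5.32% of the control mean, vemurafenib cells 64.7%. The log2 change was -4.23 (SE 0.21, adjusted p = 3.1e-08) after cisplatin and -0.63 (SE 0.16, adjusted p = 0.00893) after vemurafenib.

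RAD51AP1, which promotes strand pairing in recombination, had 17.8, 17.6 and 21.1 CPM in vemurafenib libraries, 1.94, 1.36 and 0.999 CPM in cisplatin libraries and 25.8, 23.9 and 24.7 CPM in control libraries. Its log2 change was -4.11 (SE 0.20, adjusted p = 2.99e-08) after cisplatin. After vemurafenib all 3 libraries lay below the controls, but the log2 change of -0.40 missed the threshold (adjusted p = 0.0531; 0.0235 to 0.175 over 17 alternatives, 6 of which passed it). BARD1, the partner of BRCA1 in its ubiquitin ligase, had 6.24, 5.55 and 5.51 CPM in vemurafenib libraries, 0.692, 0.679 and 0.533 CPM in cisplatin libraries and 10.8, 10.9 and 9.24 CPM in control libraries. RAD54L, a motor protein that drives strand exchange, had 21.3, 15.2 and 19.0 CPM in vemurafenib libraries, 2.15, 1.56 and 1.47 CPM in cisplatin libraries and 26.3, 26.8 and 28.2 CPM in control libraries. Both genes fell in both drug groups, to 56.0% and 6.17% of the control mean for BARD1 and to 68.3% and 6.35% for RAD54L after vemurafenib and cisplatin.

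BLM, the helicase that undoes joined recombination intermediates, had 14.7, 16.5 and 17.6 CPM in vemurafenib libraries, 1.59, 1.83 and 1.47 CPM in cisplatin libraries and 26.0, 20.4 and 29.1 CPM in control libraries. It fell after both drugs, with log2 changes of -0.63 (SE 0.15, adjusted p = 0.00519) after vemurafenib and -3.94 (SE 0.19, adjusted p = 3.1e-08) after cisplatin. BRCA1, a scaffold that promotes resection of broken ends, had 36.7, 46.1 and 57.3 CPM in vemurafenib libraries, 11.5, 9.50 and 9.32 CPM in cisplatin libraries and 65.5, 58.0 and 75.8 CPM in control libraries. Its fall after cisplatin was -2.72 on the log2 scale (SE 0.18, adjusted p = 3.63e-07). Its smaller fall after vemurafenib, -0.51 (SE 0.16, adjusted p = 0.0242), lost its call in 5 of 17 alternatives, with adjusted p values between 0.00414 and 0.0968.

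BRCA2, a mediator of homologous recombination that binds single-stranded DNA, had 7.15, 14.5 and 16.5 CPM in vemurafenib libraries, 2.77, 2.51 and 2.13 CPM in cisplatin libraries and 22.7, 25.3 and 27.5 CPM in control libraries. All groups were separate, and the lowest vemurafenib value came from replicate 1. The log2 change after vemurafenib was -0.98 (SE 0.24, adjusted p = 0.00609), and -0.70 without replicate 1 (adjusted p = 0.000735). XRCC2, which acts in strand exchange, also fell after both drugs, by 1.07 and 3.55 on the log2 scale after vemurafenib and cisplatin (-0.79 after vemurafenib without replicate 1), and BRIP1, the helicase that binds BRCA1, fell by 0.68 and 2.56.

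XRCC3, RAD51B, RAD51C and RAD51D, which also act in recombination, did not move as a block. XRCC3 averaged 24.2 ± 6.83 CPM in vemurafenib cells, 9.30 ± 0.0448 CPM in cisplatin cells and 21.1 ± 0.924 CPM in control cells (SD, n = 3 each), and fell after cisplatin by 1.18 on the log2 scale (adjusted p = 0.000254). RAD51B had 2.41, 2.43 and 3.24 CPM in vemurafenib libraries, 3.67, 3.66 and 3.33 CPM in cisplatin libraries and 6.52, 6.83 and 5.52 CPM in control libraries. It was the lone recombination gene with a larger point change after vemurafenib (-1.22, adjusted p = 0.00035) than after cisplatin (-0.82, adjusted p = 0.00397) among those that fell in both, and the direct comparison of vemurafenib with cisplatin did not pass (log2 change -0.40, adjusted p = 0.131). RAD51C and RAD51D had log2 changes after cisplatin of -0.21 and -0.04, and neither passed the test (adjusted p = 0.21 and 0.842). Of the remaining genes, RAD54B fell by 1.08 and RBBP8, which starts resection, by 0.54 after cisplatin, the call of RBBP8 being lost in 3 of 17 alternatives. NBN and RAD50 belong to the complex that senses breaks, and PALB2 bridges BRCA1 and BRCA2; their log2 changes after cisplatin were -0.30, 0.39 and -0.21, none past the threshold, though without vemurafenib replicate 1 NBN passed it (adjusted p = 0.00519). RAD50 had 68.9, 105.6 and 105.6 CPM in vemurafenib libraries, 97.9, 106.5 and 113.3 CPM in cisplatin libraries and 77.3, 82.1 and 83.7 CPM in control libraries, and its adjusted p after cisplatin, 0.0541, passed in 7 of 17 alternatives. Without vemurafenib replicate 1 its log2 changes were 0.38 after vemurafenib (adjusted p = 0.00136, against 0.20 and 0.295 with it) and 0.39 after cisplatin (adjusted p = 0.000529).

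The Fanconi anaemia genes fell with the recombination genes after cisplatin: 9 of 10 fell and 0 rose, with a median log2 change of -1.48. After vemurafenib 5 fell and 0 rose, with a median of -0.40. Falls took 23.5% of all tested genes after cisplatin and 22.9% after vemurafenib. FANCD2, which with FANCI forms the clamp that is ubiquitinated at a crosslink, had 40.8, 44.0 and 44.4 CPM in vemurafenib libraries, 7.82, 8.01 and 6.86 CPM in cisplatin libraries and 64.3, 55.2 and 62.3 CPM in control libraries. FANCI had 91.4, 83.6 and 92.6 CPM in vemurafenib libraries, 21.5, 19.9 and 19.2 CPM in cisplatin libraries and 145.8, 130.1 and 145.8 CPM in control libraries. For both clamp genes the groups were separate, and the log2 changes after vemurafenib and cisplatin were -0.49 and -3.00 for FANCD2 and -0.66 and -2.80 for FANCI.

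Within the core complex that ubiquitinates the clamp, changes were uneven. FANCB, one of its structural subunits, had 13.2, 18.9 and 21.2 CPM in vemurafenib libraries, 1.59, 1.49 and 1.93 CPM in cisplatin libraries and 15.5, 12.5 and 16.2 CPM in control libraries. It fell after cisplatin by 3.13 on the log2 scale (SE 0.23, adjusted p = 8.5e-07), whereas its vemurafenib values overlapped control (log2 change 0.27, adjusted p = 0.254; 0.44 and 0.0181 without vemurafenib replicate 1). FANCA had 27.6, 21.6 and 25.3 CPM in vemurafenib libraries, 7.48, 6.24 and 4.53 CPM in cisplatin libraries and 35.5, 34.9 and 39.5 CPM in control libraries, and its fall after vemurafenib, -0.56 with adjusted p = 0.0126, reached 0.0509 without control replicate 3. FANCG had 29.5, 17.7 and 23.2 CPM in vemurafenib libraries, 11.5, 10.9 and 12.5 CPM in cisplatin libraries and 38.3, 33.6 and 39.7 CPM in control libraries. FANCE fell by a like amount in both drug groups, -0.69 after vemurafenib and -0.78 after cisplatin, with a direct difference of 0.09 (SE 0.17, adjusted p = 0.7). FANCC and FANCM fell after cisplatin by 1.29 and 1.17 on the log2 scale, and FANCF by 0.49, a call lost in 6 of 17 alternatives. FANCL, the ubiquitin ligase subunit, was the exception, with 41.4 ± 4.31 CPM in vemurafenib cells, 39.0 ± 4.01 CPM in cisplatin cells and 33.7 ± 1.37 CPM in control cells (SD, n = 3 each) and adjusted p values of 0.0589 after vemurafenib (0.00906 without replicate 1) and 0.166 after cisplatin.

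The checkpoint kinases split. CHEK1, the effector kinase of ATR, had 24.8, 23.4 and 26.2 CPM in vemurafenib libraries, 9.55, 11.3 and 11.8 CPM in cisplatin libraries and 60.6, 53.9 and 64.9 CPM in control libraries. Its fall of 1.27 on the log2 scale (SE 0.12, adjusted p = 6.46e-06) after vemurafenib was close to that of RAD51B, and after cisplatin it fell by 2.46 (SE 0.13, adjusted p = 5.06e-08). ATR itself had 46.3, 79.5 and 86.6 CPM in vemurafenib libraries, 85.4, 88.5 and 94.7 CPM in cisplatin libraries and 45.1, 43.3 and 49.1 CPM in control libraries. It rose after cisplatin by 0.97 on the log2 scale (SE 0.19, adjusted p = 0.00141). After vemurafenib, replicate 1 lay within the control range and the others far above it; the log2 change was 0.63 (adjusted p = 0.0175) and 0.86 without replicate 1 (adjusted p = 5.17e-06), and the call was lost in 5 of 17 alternatives. CHEK2 had 17.2, 14.9 and 13.6 CPM in vemurafenib libraries, 8.38, 7.19 and 8.66 CPM in cisplatin libraries and 13.4, 12.5 and 13.4 CPM in control libraries, and fell after cisplatin by 0.70. ATM had 49.2, 120.4 and 121.3 CPM in vemurafenib libraries, 122.3, 129.0 and 136.9 CPM in cisplatin libraries and 78.3, 88.1 and 89.7 CPM in control libraries. Its vemurafenib libraries lay on both sides of control, and neither comparison passed (adjusted p = 0.592 after vemurafenib and 0.0763 after cisplatin), although without vemurafenib replicate 1 both did, with log2 changes of 0.50 (adjusted p = 0.000259) and 0.60 (adjusted p = 2.49e-05).

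**Figure D3:**
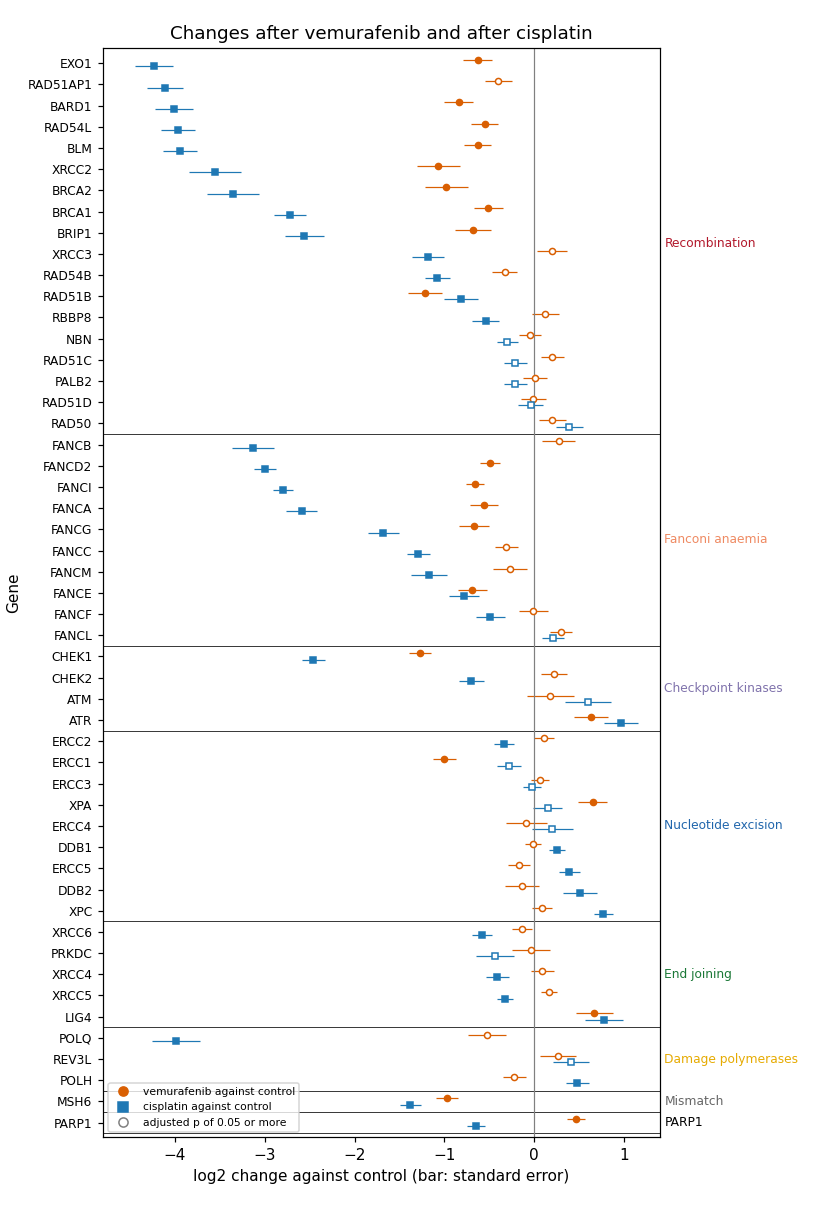
The log2 change of each repair gene against control, with bars for the standard error, orange circles for vemurafenib and blue squares for cisplatin; filled symbols passed an adjusted p of 0.05. Blue squares of the recombination and Fanconi genes reach -4.23, while no gene listed under excision or end joining moved by 1 after cisplatin. POLQ, which acts in microhomology-mediated end joining but is listed with the polymerases, fell by 3.99.

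The nucleotide excision genes showed small changes after cisplatin in both directions: 4 of 9 rose, 1 fell, and the median log2 change was 0.20. Among all tested genes 22.7% rose and 23.5% fell. XPC, which recognises distorted DNA, had 90.9, 85.7 and 76.6 CPM in vemurafenib libraries, 125.7, 139.9 and 140.4 CPM in cisplatin libraries and 89.4, 77.2 and 71.5 CPM in control libraries. The cisplatin libraries lay above all others, and the log2 change was 0.77 (SE 0.11, adjusted p = 0.000218). DDB2, the damage-binding partner of DDB1, had 122.2, 83.0 and 72.5 CPM in vemurafenib libraries, 147.4, 138.7 and 150.0 CPM in cisplatin libraries and 126.4, 94.8 and 85.3 CPM in control libraries. Its cisplatin libraries were again above the rest, but replicate 1 was the highest of both other groups, and the call (log2 change 0.51, adjusted p = 0.045) was lost in 5 of 17 alternatives, with adjusted p values between 0.00337 and 0.164. After vemurafenib its log2 change was -0.14 (adjusted p = 0.571), and -0.39 without replicate 1 (adjusted p = 0.0316). ERCC5, the nuclease that cuts 3′ of a lesion, had 62.4, 52.6 and 53.3 CPM in vemurafenib libraries, 89.5, 82.2 and 75.7 CPM in cisplatin libraries and 69.1, 65.0 and 54.6 CPM in control libraries, and rose after cisplatin by 0.39 on the log2 scale. DDB1 rose by 0.25 and the helicase gene ERCC2 fell by 0.34; their calls and that of ERCC5 were lost in 7, 7 and 3 of 17 alternatives, in the order DDB1, ERCC2, ERCC5.

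After vemurafenib, excision genes gave 1 rise and 1 fall, where 22.0% of all tested genes rose and 22.9% fell. ERCC1 had 171.9, 119.6 and 136.7 CPM in vemurafenib libraries, 243.8, 234.8 and 227.3 CPM in cisplatin libraries and 302.0, 282.4 and 273.0 CPM in control libraries. It fell after vemurafenib by 1.00 on the log2 scale (SE 0.13, adjusted p = 7.28e-05), and its log2 change after cisplatin was -0.28 (adjusted p = 0.0902, and 0.00551 without vemurafenib replicate 1). XPA, the scaffold that verifies the lesion, had 13.2, 12.0 and 12.3 CPM in vemurafenib libraries, 10.3, 7.94 and 8.32 CPM in cisplatin libraries and 9.26, 7.10 and 7.51 CPM in control libraries, and rose after vemurafenib by 0.65 (SE 0.16, adjusted p = 0.00579). ERCC3 and ERCC4, a helicase and the nuclease partner of ERCC1, passed the test in no comparison.

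Of the 5 end-joining genes, 3 fell and 1 rose after cisplatin, and 1 rose and 0 fell after vemurafenib. Among all tested genes 23.5% fell and 22.7% rose after cisplatin, and 22.0% rose and 22.9% fell after vemurafenib. XRCC6 had 320.2, 256.6 and 265.8 CPM in vemurafenib libraries, 218.4, 205.7 and 192.8 CPM in cisplatin libraries and 310.3, 291.7 and 323.4 CPM in control libraries. XRCC5 had 541.3, 523.8 and 511.3 CPM in vemurafenib libraries, 390.0, 368.5 and 361.7 CPM in cisplatin libraries and 484.6, 439.6 and 488.7 CPM in control libraries. Both Ku genes were lowest in the cisplatin libraries, with log2 changes of -0.58 (adjusted p = 0.00116) and -0.33 (adjusted p = 0.0121), the call of XRCC5 being lost in 3 of 17 alternatives. XRCC6 had a log2 change of -0.14 after vemurafenib (adjusted p = 0.344), and of -0.24 without replicate 1 (adjusted p = 0.0233). XRCC4, the scaffold of the ligase, had 14.8, 14.1 and 13.2 CPM in vemurafenib libraries, 10.2, 10.3 and 9.32 CPM in cisplatin libraries and 14.5, 13.2 and 11.9 CPM in control libraries, a fall of 0.41 whose call was lost in 6 of 17 alternatives. LIG4, the ligase itself, had 41.3, 85.2 and 76.9 CPM in vemurafenib libraries, 69.2, 67.9 and 81.8 CPM in cisplatin libraries and 46.0, 39.9 and 41.7 CPM in control libraries. It rose after both drugs, by 0.67 after vemurafenib (adjusted p = 0.0236, lost in 5 of 17 alternatives; 0.93 without replicate 1, adjusted p = 1.21e-05) and by 0.78 after cisplatin (adjusted p = 0.0112). PRKDC, the kinase that Ku recruits, had 396.2, 747.4 and 812.7 CPM in vemurafenib libraries, 490.2, 485.0 and 505.5 CPM in cisplatin libraries and 629.6, 661.2 and 723.3 CPM in control libraries. Its log2 change after vemurafenib was -0.04 (adjusted p = 0.885), and without replicate 1 it was 0.22 (adjusted p = 0.0422). All 3 cisplatin libraries lay below the controls, with a log2 change of -0.44 that missed the threshold (adjusted p = 0.101) and passed it without vemurafenib replicate 1 (adjusted p = 0.000307) and in the fit of the groups compared.

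The remaining members were 3 polymerase genes, MSH6 and PARP1. POLQ, the polymerase of microhomology-mediated end joining, had 13.0, 23.6 and 25.2 CPM in vemurafenib libraries, 1.94, 2.17 and 1.47 CPM in cisplatin libraries and 28.4, 28.8 and 31.8 CPM in control libraries, a fall of 3.99 on the log2 scale after cisplatin (SE 0.27, adjusted p = 3.71e-07). The size of this fall lies between those of BARD1 and RAD54L, and its call after vemurafenib was missed (log2 change -0.53, adjusted p = 0.0593; 0.0312 with the replicate block; -0.28 and 0.0504 without replicate 1). POLH, which copies past bulky lesions, had 26.5, 31.3 and 33.3 CPM in vemurafenib libraries, 41.8, 50.1 and 55.9 CPM in cisplatin libraries and 33.3, 35.5 and 37.1 CPM in control libraries, and rose after cisplatin by 0.48 (SE 0.13, adjusted p = 0.0104; lost in 2 of 17 alternatives). REV3L, the catalytic subunit of polymerase zeta, passed neither test with all libraries (log2 changes 0.26 and 0.41, adjusted p = 0.312 and 0.11), and passed both without vemurafenib replicate 1 (0.50 and 0.41, adjusted p = 0.0011 and 0.00178). MSH6, which recognises mismatches, had 61.5, 77.4 and 86.3 CPM in vemurafenib libraries, 56.3, 58.8 and 54.1 CPM in cisplatin libraries and 150.2, 151.8 and 139.3 CPM in control libraries, with log2 changes of -0.97 and -1.38. PARP1 was the 1 member with called changes of opposite sign: 409.5, 410.4 and 410.7 CPM in vemurafenib libraries, 175.4, 191.3 and 196.9 CPM in cisplatin libraries and 289.5, 275.7 and 321.1 CPM in control libraries. The 3 groups did not overlap, and the log2 changes were 0.47 (adjusted p = 0.00206) and -0.65 (adjusted p = 0.000234).

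The 4 windows below show the RefSeq promoters (GRCh38.p14, 250 bases before to 50 after an annotated start, written on the gene's strand) of the called members with the largest falls and rises after cisplatin that had an entry, so that the recombination genes with the deepest falls can be read beside the kinase and ligase that rose. Capitals mark a match to one of the motifs searched on both strands: E2F (TTTCGCGC, TTTGGCGC or TTTCCCGC), the CHR element (TTTGAA), the CCAAT box and the p53 half-site.
EXO1, chr1:241847954-241848253, plus strand: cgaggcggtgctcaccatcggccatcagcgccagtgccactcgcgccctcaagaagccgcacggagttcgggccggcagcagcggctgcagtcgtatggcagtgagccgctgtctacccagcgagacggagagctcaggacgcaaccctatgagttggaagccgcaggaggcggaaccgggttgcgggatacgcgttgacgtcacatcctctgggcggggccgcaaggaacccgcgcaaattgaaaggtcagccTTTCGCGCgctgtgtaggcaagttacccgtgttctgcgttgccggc
RAD51AP1, chr12:4538640-4538939, plus strand: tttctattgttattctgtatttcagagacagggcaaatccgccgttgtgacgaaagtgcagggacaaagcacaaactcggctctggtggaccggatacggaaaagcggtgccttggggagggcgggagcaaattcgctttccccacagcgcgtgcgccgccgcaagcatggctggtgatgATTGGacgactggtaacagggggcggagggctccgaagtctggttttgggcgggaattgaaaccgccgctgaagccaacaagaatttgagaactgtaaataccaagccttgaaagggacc
ATR, chr3:142578684-142578983, minus strand: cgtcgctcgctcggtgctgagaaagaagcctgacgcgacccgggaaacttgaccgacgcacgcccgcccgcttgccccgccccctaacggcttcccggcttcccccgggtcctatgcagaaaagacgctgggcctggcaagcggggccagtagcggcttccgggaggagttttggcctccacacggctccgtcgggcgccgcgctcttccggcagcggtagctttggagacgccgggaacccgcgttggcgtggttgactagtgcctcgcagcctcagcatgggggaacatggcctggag
LIG4, chr13:108218300-108218599, minus strand: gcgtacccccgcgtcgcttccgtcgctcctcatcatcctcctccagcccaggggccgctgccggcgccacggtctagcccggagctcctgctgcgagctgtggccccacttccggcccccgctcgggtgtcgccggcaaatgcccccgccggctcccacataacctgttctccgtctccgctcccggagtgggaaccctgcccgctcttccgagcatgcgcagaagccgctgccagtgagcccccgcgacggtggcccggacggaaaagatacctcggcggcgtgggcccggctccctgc
EXO1 holds an E2F match at bases 255 to 262 of its window, RAD51AP1 a CCAAT match on the reverse strand at bases 181 to 185, and the ATR and LIG4 windows none of these letters. The table gives 2 windows for EXO1 and 5 for LIG4, of which the first listed is shown, and the start of EXO1 in the gene table, 241847986, lies inside the window shown, so the E2F match is downstream of that start. Of the 46 members with an entry, 7 (15.2%) held an E2F match, where 763 of 27305 genes in the table (2.79%) did, each gene by its first listed window. These 27305 genes were not limited to those expressed here, whereas all members passed the count filter, so the 2 shares are not like for like. The holders were EXO1, MSH6, FANCD2, XPC, XRCC2, FANCC and XRCC6, of which XPC rose after cisplatin and the other 6 fell. By class, an E2F match stood in 2 of 16 recombination windows (12.5%) and in 2 of 12 excision and end-joining windows (16.7%). It stood in 5 of the 19 members that fell by at least 1 on the log2 scale after cisplatin (26.3%). In the 27 others there were 2 (7.41%). On this split CCAAT stood in 47.4% and 29.6%, CHR in 15.8% and 3.70%, and the p53 half-site in 5.26% and 0.00%. These differences were not tested. CCAAT stood in 37.0% of the members' windows and 35.7% of all genes' windows, CHR in 8.70% and 15.4%, and the p53 half-site in 2.17% and 6.54%. A match is a run of letters and not a measured binding site.

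Set side by side, the recombination genes and the 14 excision and end-joining genes had median log2 changes of -1.87 and 0.07 after cisplatin. After vemurafenib the medians were -0.45 and 0.03. POLQ, which acts in microhomology-mediated end joining, is listed with the polymerases and stands in neither set. Its log2 change after cisplatin was -3.99. After cisplatin 13 of 18 against 4 of 14 fell and 0 against 5 rose, and falls by at least 1 on the log2 scale numbered 11 against 0. Of all tested genes 23.5% fell, 22.7% rose and 9.30% fell by at least 1. After vemurafenib 9 of 18 against 1 of 14 fell and 0 against 2 rose, where 22.9% of all tested genes fell and 22.0% rose. By library, the median log2 deviation of the recombination genes from the control mean was -0.48, -0.50 and -0.22 in vemurafenib, -1.63, -1.90 and -1.99 in cisplatin and 0.04, -0.07 and 0.07 in control libraries. That of the excision and end-joining genes pooled was 0.08, 0.07 and 0.04 in vemurafenib, 0.11, -0.02 and 0.00 in cisplatin and 0.07, -0.03 and -0.05 in control libraries, so that the groups overlapped. Taken apart, the class medians moved in opposite directions after cisplatin. The excision median was 0.25, 0.20 and 0.23 in cisplatin and 0.08, -0.03 and -0.07 in control libraries. The end-joining median was -0.36, -0.35 and -0.41 in cisplatin and 0.04, -0.08 and 0.05 in control libraries. With 1 library left out, the excision and end-joining falls after cisplatin ranged between 1 (without cisplatin replicate 2) and 6, and were 2 without cisplatin replicate 1 or 3 or control replicate 1 or 2; the rises were 2 without cisplatin replicate 1 or 2 or control replicate 3, and 3 without cisplatin replicate 3 or control replicate 2. Their falls after vemurafenib numbered 3 without vemurafenib replicate 1, and their rises 1 without vemurafenib replicate 2 or 3 or control replicate 2 or 3. The recombination falls ranged between 12 and 14 after cisplatin and between 7 and 11 after vemurafenib. The difference between the lists was described and not tested, since the lists were chosen with results in view.

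**Figure D4:**
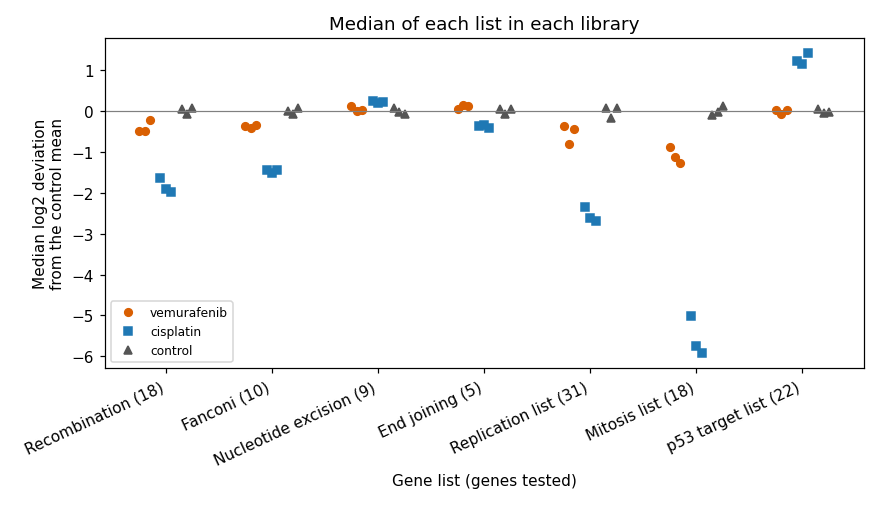
Median log2 deviation from the control mean for each gene list, 1 symbol per library: circles for vemurafenib, squares for cisplatin and triangles for control libraries, with the number of genes in brackets. Recombination and Fanconi medians in cisplatin libraries lie between -1.99 and -1.44, with the replication and mitosis lists lower still and the p53 target list above 0.

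Cell cycle genes moved with these falls. In a list of 31 DNA replication genes that holds no member, 31 fell after cisplatin (median log2 change -2.56) and 20 fell after vemurafenib (median -0.55), and 0 rose in either. All 18 mitosis genes fell after both drugs, with medians of -5.62 after cisplatin and -1.08 after vemurafenib. The proliferation marker MKI67 averaged 285.1 ± 43.5 CPM in vemurafenib cells, 8.81 ± 2.44 CPM in cisplatin cells and 528.8 ± 55.3 CPM in control cells (SD, n = 3 each). Of 22 tested p53 target genes outside the members, 17 rose after cisplatin and 0 fell (median 1.23), beside rises of the members XPC, DDB2 and POLH, which are also known as p53 targets. After vemurafenib 5 of the 22 rose and 4 fell. Among all tested genes 22.7% rose and 23.5% fell after cisplatin, and 22.0% rose and 22.9% fell after vemurafenib. The p53 target counts after vemurafenib lie near those shares. CDKN1A, the kinase inhibitor p21, averaged 292.8 ± 24.4 CPM in vemurafenib cells, 1350.1 ± 148.3 CPM in cisplatin cells and 326.9 ± 40.7 CPM in control cells (SD, n = 3 each). The part of cell cycle phase and of p53 in the repair gene changes was not tested.

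In the direct comparison of the drug groups, 31 of the 51 genes were higher in vemurafenib than in cisplatin cells and 6 were lower, where 23.0% and 20.8% of all tested genes were. The median log2 difference was 0.49, against 0.03 over all tested genes, and 18 genes were higher by at least 1, as were 8.13% of all tested genes. Recombination genes gave 13 higher and 0 lower (median 1.63), Fanconi genes 8 and 0 (median 1.00), excision genes 2 and 5 (median -0.28), and end-joining genes 3 and 0 (median 0.45). Differences above 3 included those of RAD51AP1 at 3.72, EXO1 at 3.61, POLQ at 3.47, RAD54L at 3.42, FANCB at 3.40 and BLM at 3.31, whose order is within their errors and changes without vemurafenib replicate 1 (3.76, 3.66, 3.71, 3.31, 3.58 and 3.38), and the 6 lower genes were XPC, DDB2, DDB1, ERCC5, ERCC1 and POLH. NBN and PRKDC did not pass (differences 0.25 and 0.40, adjusted p = 0.126 and 0.139) but did without vemurafenib replicate 1 (0.36 and 0.66, adjusted p = 0.00371 and 4.23e-05). The direct difference of CHEK1 was 1.19 (SE 0.13, adjusted p = 1.59e-05), and that of PARP1 was 1.13 (SE 0.10, adjusted p = 3.34e-06).

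Other genes of the same pathways, 105 tested of 106 listed, gave 47 falls and 8 rises after cisplatin (median -0.25). After vemurafenib they gave 28 falls and 9 rises (median -0.08). Falls took 23.5% and rises 22.7% of all tested genes after cisplatin, and 22.9% and 22.0% after vemurafenib. RMI2, a partner of BLM, fell by 1.41 and 3.89 on the log2 scale after vemurafenib and cisplatin, and NEIL3, a glycosylase that can unhook crosslinks, fell by 4.63 (SE 0.40) after cisplatin. In cisplatin libraries NEIL3 averaged 7.7 counts and 0.527 ± 0.563 CPM (SD, n = 3), so depth limits the size of its fall. WEE1, the kinase that holds CDK1 inactive, fell after vemurafenib by 2.04 (adjusted p = 1.61e-07), and its log2 change after cisplatin was 0.08 (adjusted p = 0.563). Rises were smaller: POLK, a bypass polymerase, rose by 1.29 after vemurafenib, GTF2H5, a TFIIH subunit, by 0.64, and APTX, which cleans broken ends, by 0.60. After cisplatin SWI5, a recombination cofactor, rose by 0.71, NEIL1, a glycosylase, by 0.65 and APTX by 0.63.

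Transcript length bears on the vemurafenib values. In vemurafenib replicate 1, all 10 members of at least 6 kb effective length lay below the mean of replicates 2 and 3, by a median of 0.89 on the log2 scale, whereas of the 41 shorter members 19 lay below it and the median was 0.00. Without that library, 10 members rose after vemurafenib (RAD50, FANCB, FANCL, ATM, ATR, XPA, LIG4, PRKDC, REV3L and PARP1) and 19 fell, against 4 and 17 with it. Leaving it out also changes the shared estimate of spread, and in cisplatin against control 10 members rose and 34 fell, against 7 and 31 with it.

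**Figure D5:**
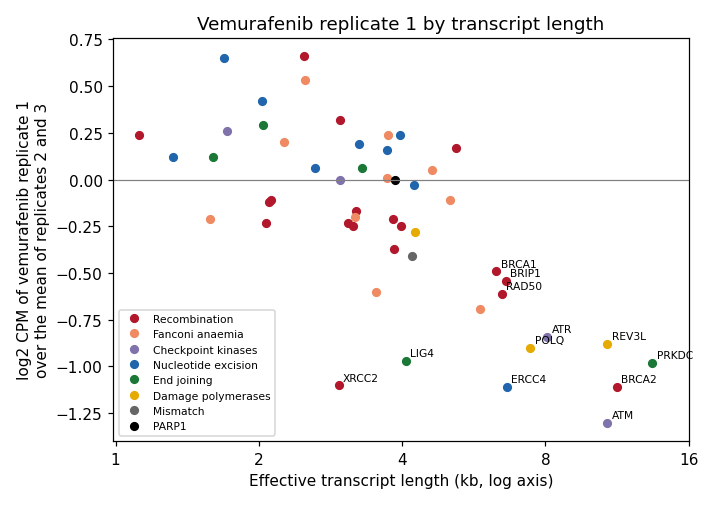
Log2 ratio of vemurafenib replicate 1 to the mean of vemurafenib replicates 2 and 3 for each of the 51 repair genes, against effective transcript length in kb on a log axis, coloured by role. The 10 genes of at least 6 kb lie between -1.3 and -0.49.

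The libraries are not stated to mark strand, and 9 members share at least 10% of their exon bases with another gene of the table, so reads may be split or shared there. For ERCC1 the share is 36.6% with CD3EAP on the opposite strand, which averaged 12.7 ± 1.14 CPM in vemurafenib cells, 14.6 ± 0.773 CPM in cisplatin cells and 17.2 ± 2.03 CPM in control cells (SD, n = 3 each). For MSH6 it is 21.0% with FBXO11, for XRCC3 45.3% with KLC1, for RAD54B 63.3% with FSBP on the same strand, and for ERCC5 64.4% with BIVM-ERCC5 on the same strand. RAD50 shares 90.6% of its exon bases with AC116366.3, a GENCODE gene on the same strand that is not used here. The other 4 are RAD54L, FANCA, FANCL and ERCC2, with shares between 12.1% and 26.6%.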

How the data were processed

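Total RNA of 9 A375 libraries was reverse transcribed with random hexamers, amplified by PCR and circularised, per the labels' protocols. Per the submitters' processing notes, HISAT2 2.0.4 was used with the hg38 build. How reads were counted, and on which annotation, is not given in the sources used here. Values, which the authors deposited as 1 table, are estimated counts, TPM and FPKM per gene, per the file headers. Of the deposited estimated counts, 13.6% to 14.1% per library had a fractional part (tolerance 1e-06), so all were rounded. TPM values of the authors served for levels between genes and 1 alternative, and the ratio of counts to FPKM, both deposited, for effective length.

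Genes were kept by filterByExpr (13989), scaled by TMM and fitted over all 9 libraries with edgeR 4.0.16 in R 4.3.3 as group means with 6 residual degrees of freedom. Contrasts used edgeR's two-sided quasi-likelihood F test and Benjamini-Hochberg adjustment over all tested genes, at a threshold of 0.05; a gene past it is said to have risen or fallen. The standard error was derived from the log2 change and its F value. The biological coefficient of variation was 0.139. The pipeline was tested on simulated data. Whether replicates are separate cultures is not labelled, and p-values therefore measure only the spread between these libraries, which may be technical.

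Deviations from the group mean of same-numbered vemurafenib and control libraries had correlations of 0.18, 0.14 and 0.18. The highest with another number were -0.08, -0.05 and -0.02. For cisplatin and control they were 0.21, 0.08 and 0.13, against -0.09, -0.02 and 0.05. For vemurafenib and cisplatin they were 0.17, 0.01 and 0.10, against 0.02, 0.14 and -0.03. The main fit held no term for the replicate number, so its p-values leave any pairing out. The replicate block, which holds this term, was 1 alternative. Alternatives were DESeq2 1.42.0, limma 3.58.1 on log2(TPM + 1), 2 other scalings, 2 other filters, a fit of the 2 groups compared, the replicate block and leaving out each library.

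The members and lists were chosen with earlier results of these data known. All members are named, values per library are given for the called members of each class with the largest changes, up to 5 a class, and for BRCA1, BRCA2, RAD51B, RAD50 and some others chosen after their values were seen. Other repair genes named are the 3 largest called rises and falls per drug whose higher group averaged 50 counts or more a library. A gene that this rule names is not reported here. MKI67 and CDKN1A were chosen after their values were seen. Gene identifiers (18153) were matched to RefSeq, 26 symbols turned into dates were replaced, and exon overlap came from GENCODE. Promoter windows are credited to RefSeq; 15 of the 46 members with one had several, and the first listed was searched.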

Additional observations from a re-analysis of the deposited data

How the results depend on the processing

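Over 17 alternatives, 15 of the 21 members called after vemurafenib, 29 of the 38 called after cisplatin and 32 of the 37 called between the drugs passed the test in every one, and 12, 7 and 3 genes not called in the main analysis passed in at least 1, in the same order. Members that rose after vemurafenib numbered 2 with limma on log2(TPM + 1), against 4, and between 2 and 10 with 1 library left out; excision and end-joining genes that rose numbered 1 with limma, against 2, and 1 to 3 with a library left out, and those that fell 1 to 3, while 0 to 1 recombination genes rose. After cisplatin, members that rose numbered 11 in the fit of the groups compared, against 7, and 4 to 10 with a library left out; 1 recombination gene, RAD50, rose with DESeq2, with the fit of the groups compared, with the replicate block and with total counts only, and 0 to 1 with a library left out. Excision and end-joining genes that fell after cisplatin numbered 1 with limma, against 4, and 1 to 6 with a library left out, and those that rose 2 to 5.

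The median log2 change of the excision and end-joining genes lay near 0 and took either sign: after vemurafenib it was 0.03, 0.13 with total counts only and -0.02 to 0.07 with a library left out, where it was -0.02 without control replicate 2; after cisplatin it was 0.07 and -0.01 to 0.1, with -0.01 without cisplatin replicate 1 or control replicate 2; between the drugs it was -0.01, 0.04 with total counts only and -0.09 to 0.11, with 0.02 without cisplatin replicate 3 and 0.11 without vemurafenib replicate 1. These omissions were chosen after seeing the data. Taken apart, the excision and end-joining classes had medians of 0.20 and -0.41 after cisplatin in the main analysis. The log2 change of PRKDC after vemurafenib ranged between -0.25 without vemurafenib replicate 3 and 0.22 without vemurafenib replicate 1. The cause of these shifts was not tested.

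In vemurafenib against control, the replicate block brought RAD54B (adjusted p = 0.0432) and POLQ (adjusted p = 0.0312) past the threshold. It changed no other call of a member there. In cisplatin against control it added RAD50 (adjusted p = 0.0253) and ATM (adjusted p = 0.0382). Scaling moved the split over all genes: with total counts only, 60.0% of the calls after vemurafenib were rises, and 59.1% with limma on TPM, against 49.1%, and the median of all genes was 0.11 in place of 0.01. Depth limits the members with the lowest counts, BARD1 in cisplatin cells among them, and with 3 libraries a group small changes near the threshold depend on single libraries.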
